A study of Mus musculus with 5 samples.

Results

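The 9 genes followed here make, break down, carry and read retinoic acid: Aldh1a2, Cyp26a1, Cyp26b1, Cyp26c1, Crabp1, Crabp2, Rara, Rarb and Rarg. They were taken by symbol from the count tables, where each was listed once, and they make up 9 of 23284 genes. The tables hold RNA-seq read counts from the neural tubes of 5 mouse embryos and were made to find genes that depend on EpoR, the receptor for erythropoietin, in the early nervous system. Reads assigned to genes ranged from 19316126 to 41169218 per sample.

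By their labels, 2 samples were EpoR +/+ (wild type), 1 was EpoR +/- (heterozygote) and 2 were EpoR -/- (EpoR-null). All came from crosses of mice carrying the same EpoR null allele, and no other allele or agent is named. The labels give the age of every embryo as E8.5, whereas the methods of the study give E9.0. EpoR was lost from the whole embryo, blood and vessels included, so that a change in these samples need not have started in neural cells. The wild type samples and the library labelled heterozygote served together as the controls (n = 3).

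Retinoic acid is made from vitamin A and acts as a short-range signal in the embryo. Retinol is oxidised to retinaldehyde and then, by Aldh1a2 in the somites beside the early neural tube, to retinoic acid, which enters neural cells, binds nuclear receptors paired with retinoid X receptors, and switches on genes of the hindbrain and spinal cord. Cyp26 enzymes destroy it in the tissues that must stay free of it, and Crabp proteins bind it in the cytoplasm.

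Read counts are given as CPM, the count of a gene scaled to one common library size, adjusted between samples by the trimmed mean of M-values. Genes above 1 CPM in at least 2 samples were tested by edgeR's exact test, and a gene was called when p was below 0.001 and the false discovery rate (FDR) below 0.05, the thresholds of the study. A log2 fold change is EpoR-null minus controls, so that a positive value is higher in EpoR-null. The p-values rest on the spread between samples of the same group, estimated for each gene with information shared across genes.

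The check of the targeted gene did not separate the groups. Epor had 57 reads in wild type 1, 68 in wild type 2, 11 in the library labelled heterozygote, 7 in EpoR-null 1 and 19 in EpoR-null 2. The library labelled heterozygote, at 0.476 CPM, lay between EpoR-null 1 at 0.354 and EpoR-null 2 at 0.669 CPM, and well below the wild type samples at 1.62 and 2.36 CPM. The log2 fold change was -1.51 (SE 0.76; edgeR exact test, FDR = 0.280). Genotype therefore rests on the label of that library, and fold changes that it moved are given with and without it.

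Neural progenitor markers (9 genes, among them Sox2, Sox3 and Pax6) summed to between 1457 and 1976 CPM in all 5 samples, and forebrain markers (6 genes, among them Six3 and Lhx2) to between 0.519 and 2.58 CPM, with none of the 6 above the filter on low counts. The library labelled heterozygote stood apart in other tissues. Its 8 endothelial markers summed to 13.1 CPM, 5.11% of the wild type mean, and were all at their lowest there. Its primitive erythroid markers were at 5.21%, its paraxial mesoderm and somite markers at 18.97% and its neural crest markers at 30.7% of the wild type mean. Epor was low in the same library, and the part of these tissues in its Epor level was not tested. No marker gene on any of these lists was called between EpoR-null and control samples, where 4.77% of all tested genes were called. This does not show equal tissue content, since the controls themselves spread widely. Somite markers summed to 10.8 to 59.5 CPM in the controls, 125 in EpoR-null 1 and 39.9 in EpoR-null 2. Erythroid markers summed to 44.2 to 1092 CPM in the controls, 1693 in EpoR-null 1 and 965.6 in EpoR-null 2.

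Rarb and Cyp26a1 are textbook direct targets of the receptors, and their promoters hold a match to the motif these receptors bind. The 250 bases before the start site of each are shown from the RefSeq promoter table (build GRCm38.p6), 5′ to 3′ on the strand of the gene, with both half-sites of the motif in capitals. Rarb lies on the minus strand, chr14:16575477-16575726, and Cyp26a1 on the plus strand, chr19:37697558-37697807.
Rarb: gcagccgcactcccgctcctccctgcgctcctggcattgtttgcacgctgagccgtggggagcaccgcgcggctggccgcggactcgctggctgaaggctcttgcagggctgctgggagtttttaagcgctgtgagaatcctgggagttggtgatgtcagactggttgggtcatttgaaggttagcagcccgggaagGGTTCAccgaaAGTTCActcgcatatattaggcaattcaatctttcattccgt
Cyp26a1: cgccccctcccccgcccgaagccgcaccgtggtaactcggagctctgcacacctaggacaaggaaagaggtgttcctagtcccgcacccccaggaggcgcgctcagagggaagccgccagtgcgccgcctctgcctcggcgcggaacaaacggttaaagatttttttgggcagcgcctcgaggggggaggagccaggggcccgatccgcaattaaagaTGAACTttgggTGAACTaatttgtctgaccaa

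The motif searched was a direct repeat of half-sites, spaced by 5 bases, on both strands. A half-site was AGTTCA as the first form, GGTTCA as another, AGGTCA as the consensus form and GGGTCA as the last form allowed. The repeat was found in 32 of 32851 promoters, or 0.0974%, each 250 bases before to 50 after a start. In Rarb it read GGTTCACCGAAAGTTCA, on the strand of the gene, with its first base at -53 from the start site. In Cyp26a1 it lay on the opposite strand, read TGAACTTTGGGTGAACT along the gene, and had its first base at -32. The same half-sites spaced by 2 bases were in 88 promoters (0.268%), none of them of these genes. Of the 9 genes, 8 were in the promoter table.

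None of the 9 genes was called. The filter on low counts was passed by 7, and the exact test called 0 of them, where 4.77% of all 12703 tested genes were called. At an unadjusted p of 0.05 it was 1 of the 7 against 19.8% of all genes, and this was Crabp1. The quasi-likelihood test, which called 0% of all genes, and DESeq2, which called 8.09%, also called 0 of the 7, each with 1 gene at an unadjusted p of 0.05. At an FDR of 0.05 alone, Crabp1 was again the 1 gene, where the share of all genes was 7.31%. Both EpoR-null samples were above all 3 controls for 3 of the 7, Rara, Rarg and Crabp1, and below them for 0, against 21.2% and 22.1% of all genes. The median log2 fold change of the 7 was 0.23, with a range of -0.22 to 0.68, beside a median of 0.06 over all tested genes.

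**Figure D1:**
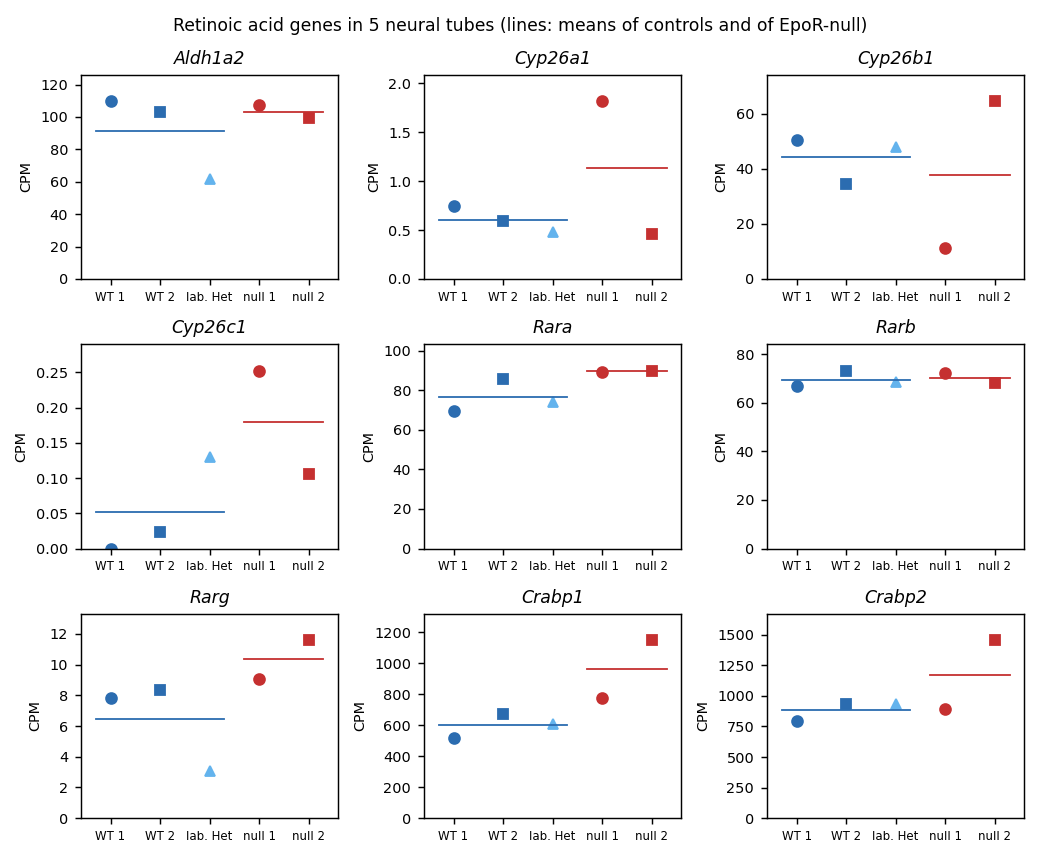
CPM (vertical axes, each from 0) of the 9 genes in each of the 5 samples: wild type 1 and 2 (WT), the library labelled heterozygote (lab. Het), and EpoR-null 1 and 2. Horizontal lines are the means of the 3 controls and the 2 EpoR-null samples. Cyp26b1 shows the EpoR-null samples on both sides of the controls, at 11.3 and 64.6 CPM, and Aldh1a2 and Rarg show the library labelled heterozygote lowest.

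Levels per length placed the carriers far above the enzymes and receptors. Crabp2 had 854.8 to 1564 CPM per kilobase of its longest transcript and Crabp1 had 643 to 1430. Aldh1a2 followed with 27.3 to 48.4 CPM per kilobase, then Rarb with 21.6 to 23.6, Rara with 20.5 to 26.6, Cyp26b1 with 2.51 to 14.4 and Rarg with 1.04 to 3.92. Cyp26a1 had 0.256 to 1.02 CPM per kilobase and Cyp26c1 had 0 to 0.145. Neighbours that overlapped over the 5 samples were Crabp2 and Crabp1, Rarb and Rara, and Cyp26b1 and Rarg. Rara was above Rarb in wild type 2 and both EpoR-null samples and below it in the others, and in EpoR-null 1 Crabp1 was above Crabp2 and Rarg above Cyp26b1. Crabp1 and Crabp2 together took 0.133 to 0.164% of all CPM in the controls and 0.170% and 0.243% in the EpoR-null samples.

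Aldh1a2, on mouse chromosome 9 (GRCm38, chr9:71215789-71296243, plus strand), encodes the enzyme that makes the retinoic acid of the early trunk. It had 110 CPM in wild type 1, 103 in wild type 2, 61.9 in the library labelled heterozygote, 107 in EpoR-null 1 and 99.1 in EpoR-null 2. The 4 other libraries lay within 99.1 to 110 CPM and the library labelled heterozygote was at 58.1% of the wild type mean, so that the groups overlapped. The means were 91.6 ± 25.9 CPM (SD, n = 3) in controls and 103 ± 5.8 (SD, n = 2) in EpoR-null, a log2 fold change of 0.17 (95% interval -0.37 to 0.71; edgeR exact test, FDR = 0.776). Without the library labelled heterozygote it was -0.05 (edgeR exact test, FDR = 0.963). The spread of Aldh1a2 over the 3 controls was 0.83 on the log2 scale, beside a median of 0.20 over all genes.

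Aldh1a2 was low in that library together with the somite, endothelial and erythroid markers, and the part of those tissues in the value was not tested. In EpoR-null 1 and EpoR-null 2 the somite markers summed to 125 and 39.9 CPM, with Aldh1a2 at 107 and 99.1 CPM. In bulk tissue, fewer cells of a type and less RNA per cell cannot be told apart. Of all tested genes, 4.56% were lower than Aldh1a2 in the library labelled heterozygote, relative to wild type. The other retinaldehyde dehydrogenases were near the detection floor of 3 reads per library (0.0729 to 0.155 CPM): Aldh1a1 lay between 0 and 0.165 CPM and Aldh1a3 between 0.0352 and 0.101 CPM. Aldh1a2 was thus the retinaldehyde dehydrogenase with measurable RNA in all 5 samples.

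**Figure D2:**
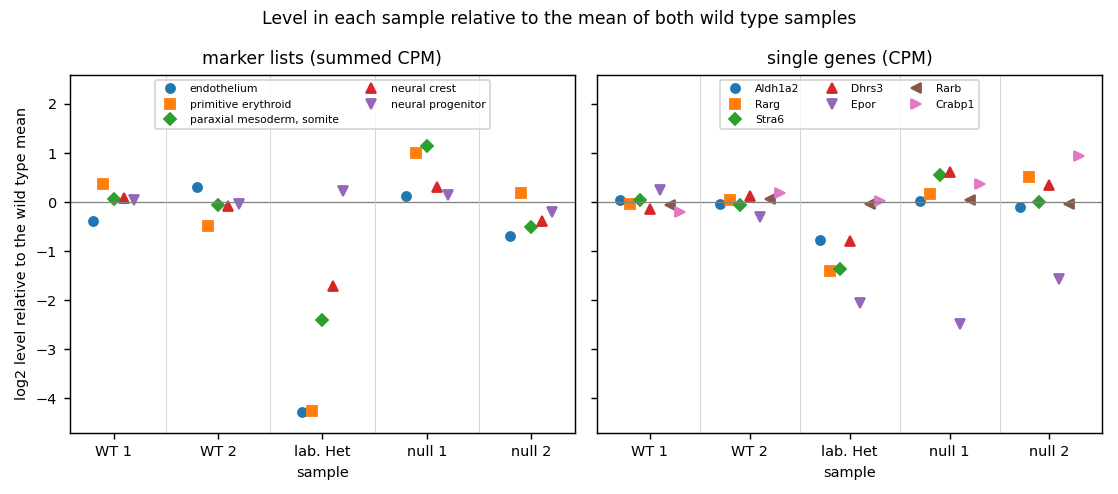
Level in each of the 5 samples (horizontal axis) relative to the wild type mean, on a log2 scale (vertical axis), for summed marker lists on the left and single genes on the right. The library labelled heterozygote (lab. Het) lies lowest for the endothelial, erythroid, mesoderm and neural crest lists and for Aldh1a2, Rarg, Stra6 and Dhrs3, whereas Rarb and Crabp1 lie near 0 in it.

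RNA of the breakdown enzyme Cyp26b1 differed between the EpoR-null samples themselves. Cyp26b1 (chr6:84571414-84593908, minus strand), which clears retinoic acid in the hindbrain, had 50.4 CPM in wild type 1, 34.5 in wild type 2, 48.1 in the library labelled heterozygote, 11.3 in EpoR-null 1 and 64.6 in EpoR-null 2. EpoR-null 1 was thus the lowest and EpoR-null 2 the highest of the 5, and the controls lay between them. The EpoR-null samples differed 5.73-fold, from 223 and 1833 reads, a gap larger than that of 98.7% of tested genes. EpoR-null samples lay on opposite sides of all controls in this way for 20.6% of all genes, and for Cyp26b1 alone among the 7. Hindbrain markers summed to 229 CPM in EpoR-null 1 and 303 in EpoR-null 2, against 219 to 237 in the controls. Spinal cord markers summed to 339 and 505 CPM, against 418 to 507 in the controls. Paraxial mesoderm and somite markers went the other way, at 125 and 39.9 CPM. The part of these tissues in the Cyp26b1 gap was not tested.

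The group means of Cyp26b1 were 44.3 ± 8.6 CPM (SD, n = 3) in controls and 37.9 ± 37.7 (SD, n = 2) in EpoR-null, with a log2 fold change of -0.22 (95% interval -1.55 to 1.10; edgeR exact test, FDR = 0.916). Without EpoR-null 1 the fold change was 0.55 (edgeR exact test, FDR = 0.0704). Without EpoR-null 2 it was -1.97 and Cyp26b1 was called (edgeR exact test, FDR = 6.16e-08). Of all genes, 18.3% were called without EpoR-null 1 and 7.76% without EpoR-null 2. Each value then compares 1 EpoR-null sample with the controls, and its spread is taken from the controls alone.

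Cyp26a1 (chr19:37697798-37701536, plus strand), the main clearing enzyme of the tail end of the embryo, and its neighbour Cyp26c1 (chr19:37685581-37693398, plus strand) were below the filter. Cyp26a1 had 18, 25, 11, 36 and 13 reads in wild type 1, wild type 2, the library labelled heterozygote, EpoR-null 1 and EpoR-null 2, or 0.744, 0.596, 0.476, 1.82 and 0.458 CPM. EpoR-null 1 was again apart from EpoR-null 2, here 3.97-fold above it, and EpoR-null 2 was the lowest of the 5. Cyp26c1 had 0, 1, 3, 5 and 3 reads in the same order, and a count of 0 in wild type 1 allows up to 0.126 CPM.

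Cyp26b1 made up nearly all of the Cyp26 RNA. Per kilobase it was 96.4%, 95.7% and 96.9% of the 3 enzymes in wild type 1, wild type 2 and the library labelled heterozygote, 68.4% in EpoR-null 1 and 97.8% in EpoR-null 2. Cyp26a1 made up 27.7% in EpoR-null 1 and 1.74 to 4.15% in the other 4 samples. The ratio of Aldh1a2 to Cyp26b1 RNA per kilobase was 4.32, 5.94 and 2.56 in the controls, 18.9 in EpoR-null 1 and 3.05 in EpoR-null 2. EpoR-null 1 was the highest of the 5, and EpoR-null 2 lay inside the range of the controls. This ratio compares RNA levels in bulk tissue, and synthesis and breakdown of retinoic acid were not measured.

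Among the receptors, Rarb varied least and Rarg most. Rara (chr11:98927818-98974942, plus strand), Rarb (chr14:16430839-16819156, minus strand) and Rarg (chr15:102234938-102257517, minus strand) encode the 3 retinoic acid receptors, and Rarb is itself induced by the signal. Rarb had 67.1 CPM in wild type 1, 73.3 in wild type 2, 68.5 in the library labelled heterozygote, 72.4 in EpoR-null 1 and 68.0 in EpoR-null 2. The 5 values lay between 67.1 and 73.3 CPM in overlapping groups, with means of 69.6 ± 3.2 CPM (SD, n = 3) in controls and 70.2 ± 3.1 (SD, n = 2) in EpoR-null. The log2 fold change was 0.01 with a 95% interval of -0.26 to 0.28 (edgeR exact test, FDR = 0.977). Rarb overlaps Top2b on the opposite strand, and whether counting used strand is not given in the sources used here, so that reads in the overlap could be misassigned.

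Rara had 69.4, 85.9 and 74.1 CPM in wild type 1, wild type 2 and the library labelled heterozygote, 89.4 in EpoR-null 1 and 89.9 in EpoR-null 2. Both EpoR-null samples lay above all controls, but 85.9 CPM in wild type 2 was close to them. The means were 76.4 ± 8.5 CPM (SD, n = 3) and 89.7 ± 0.35 (SD, n = 2), a log2 fold change of 0.23 (95% interval -0.07 to 0.53; edgeR exact test, FDR = 0.416).

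Rarg was the least abundant receptor, with 7.85, 8.36 and 3.07 CPM in wild type 1, wild type 2 and the library labelled heterozygote, 9.09 in EpoR-null 1 and 11.6 in EpoR-null 2. The groups did not overlap, and the library labelled heterozygote was at 37.9% of the wild type mean, lower relative to wild type than all but 2.79% of genes. The log2 fold change was 0.68 (95% interval -0.31 to 1.68; edgeR exact test, FDR = 0.471), and 0.35 without that library (edgeR exact test, FDR = 0.763). As for Aldh1a2, the other-tissue markers were low in the same library, and their part was not tested.

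Rara and Rarb supplied most receptor RNA per kilobase, and Rarg the remaining 2.31 to 7.49%. The share of Rara was 45.8, 49.0 and 48.7% in wild type 1, wild type 2 and the library labelled heterozygote, and 50.0 and 50.7% in EpoR-null 1 and 2. The share of Rarb was 48.2, 45.5 and 49.0% in the controls and 44.1 and 41.8% in EpoR-null 1 and 2. The ratio of Rara to Rarb was 1.01 ± 0.06 (SD, n = 3) in controls and 1.17 ± 0.06 (SD, n = 2) in EpoR-null, without overlap, since the highest control was 1.08 and the lowest EpoR-null sample 1.13. These ratios were computed as descriptions and were not tested. For single genes, both EpoR-null samples lay above all controls in 21.2% of all tested genes and below them in 22.1%. All 3 receptors summed to 47.2 ± 4.0 CPM per kilobase in controls and 52.6 ± 0.31 in EpoR-null.

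The carriers had the highest values in EpoR-null 2. Crabp1 (chr9:54764748-54773110, plus strand) and Crabp2 (chr3:87948666-87953376, plus strand) encode small cytoplasmic proteins that bind retinoic acid. Crabp2 passes it to the receptors. Crabp1 had 516, 674 and 607 CPM in wild type 1, wild type 2 and the library labelled heterozygote, 772 in EpoR-null 1 and 1147 in EpoR-null 2. Both EpoR-null samples were above all controls, and EpoR-null 2 was 1.49 times EpoR-null 1.

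Crabp1 averaged 599 ± 79.3 CPM (SD, n = 3) in controls and 959 ± 265 (SD, n = 2) in EpoR-null. It was 1.60-fold higher, a log2 fold change of 0.68 (SE 0.23, 95% interval 0.22 to 1.14), with p = 0.00314 and FDR = 0.0451 by edgeR's exact test, past the FDR threshold but not the p threshold. The FDR was 0.0124 by DESeq2 and 0.136 by edgeR's quasi-likelihood test. Without EpoR-null 2 the log2 fold change was 0.36, and without EpoR-null 1 it was 0.94, each resting on 1 EpoR-null sample. Without wild type 1, wild type 2 or the library labelled heterozygote it was 0.58, 0.77 and 0.69, with an edgeR FDR of 0.465, 0.126 and 0.227.

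Crabp2 had 796, 938 and 930.5 CPM in wild type 1, wild type 2 and the library labelled heterozygote, 890 in EpoR-null 1 and 1456 in EpoR-null 2. EpoR-null 1 lay among the controls, and EpoR-null 2 lay above all of them. The means were 888 ± 79.9 CPM (SD, n = 3) and 1173 ± 400 (SD, n = 2), a log2 fold change of 0.40 (95% interval -0.09 to 0.89; edgeR exact test, FDR = 0.370). It was 0.71 without EpoR-null 1 and 0.0011 without EpoR-null 2, each resting on 1 EpoR-null sample. The ratio of Crabp2 to Crabp1 per kilobase was 1.33, 1.199 and 1.32 in wild type 1, wild type 2 and the library labelled heterozygote, and 0.993 and 1.09 in EpoR-null 1 and 2, a description without overlap. Such a lack of overlap was common, with 22.1% of all tested genes below all controls in both EpoR-null samples.

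Transcript length moved with the fold changes over all genes, and the Crabp genes are the shortest of the 9. The longest GENCODE M21 transcripts of Crabp1 and Crabp2 are 802 and 931 bases, against 1747 to 4495 bases for the other 7 genes. Tested genes under 1000 bases had a median log2 fold change of 0.48 (492 genes), and those of 6000 bases or more had -0.41 (1948 genes). The trend was larger in EpoR-null 2. Relative to the controls, genes under 1000 bases had a median of 0.33 in EpoR-null 1 and 0.61 in EpoR-null 2. Crabp2, at 0.40, lay below the median of its length class, and Crabp1, at 0.68, above it. With length and GC content taken out by offsets, the log2 fold change was 0.18 for Crabp1 (edgeR likelihood-ratio test, FDR = 0.997) and -0.04 for Crabp2 (edgeR likelihood-ratio test, FDR = 0.998), and 1.47% of all genes were called.

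**Figure D3:**
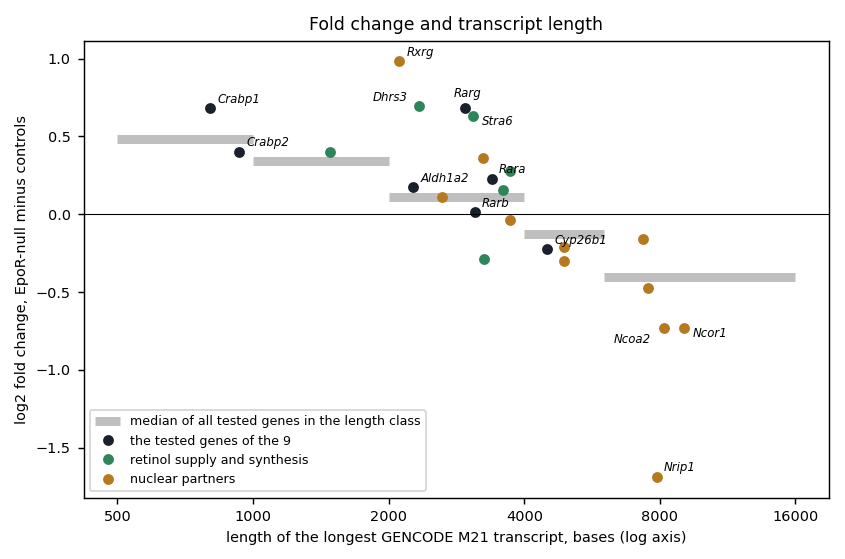
Log2 fold change, EpoR-null minus controls (vertical axis), against the length of the longest transcript in bases (horizontal log axis) for tested genes of the 9 (black) and reported genes of retinol supply and synthesis (green) and nuclear partners (brown). Grey bars are medians of all tested genes in 5 length classes, from 0.48 under 1000 bases to -0.41 at 6000 bases or more. The outer classes are open-ended and are drawn with a finite width.

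The rest of the pathway held 29 listed genes, of which 19 were tested, and the exact test called 4 lower and 0 higher, against 3.84% lower and 0.929% higher of all genes. The median log2 fold change of the 19 was -0.04. Among supply and synthesis genes, 7 of 17 were tested and 0 were called, with 1 gene at an unadjusted p of 0.05 and a median of 0.40. The 4 calls were among the 12 nuclear partners, which had a median of -0.26.

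Dhrs3, which returns retinaldehyde to retinol, had 3.02, 3.62 and 1.90 CPM in wild type 1, wild type 2 and the library labelled heterozygote, 5.05 in EpoR-null 1 and 4.23 in EpoR-null 2. The EpoR-null samples were above all controls, with a log2 fold change of 0.69 (SE 0.42; edgeR exact test, FDR = 0.358). Stra6, the cell-surface retinol transporter, was chosen after its values were seen. It had 16.7, 15.6 and 6.23 CPM in the controls in that order, 23.5 in EpoR-null 1 and 16.2 in EpoR-null 2, in overlapping groups, with a log2 fold change of 0.63 (edgeR exact test, FDR = 0.496). Without the library labelled heterozygote the log2 fold changes were 0.48 for Dhrs3 and 0.30 for Stra6 (edgeR exact test, FDR = 0.723 and 0.782). Both genes were low in the library labelled heterozygote, at 57.3% and 38.6% of the wild type mean, as Aldh1a2 and Rarg were.

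The 4 called genes encode cofactors that nuclear receptors recruit, and all were lower in EpoR-null. Nrip1, a corepressor bound by receptors that carry their ligand, had 49.0, 55.24 and 44.4 CPM in wild type 1, wild type 2 and the library labelled heterozygote, 20.96 in EpoR-null 1 and 9.89 in EpoR-null 2. The groups did not overlap. Nrip1 was 3.22-fold lower, a log2 fold change of -1.69 (SE 0.35; edgeR exact test, FDR = 0.000428).

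Ncor1, a corepressor held by receptors without ligand, had 231, 213 and 230.2 CPM in the controls in that order, 151 in EpoR-null 1 and 120 in EpoR-null 2. Its log2 fold change was -0.73 (SE 0.16; edgeR exact test, FDR = 0.000758). Of the p160 coactivators, Ncoa2 had 101, 94.0 and 102 CPM in the controls, 65.5 in EpoR-null 1 and 54.0 in EpoR-null 2, a log2 fold change of -0.73 (SE 0.15; edgeR exact test, FDR = 0.000216). Ncor1 and Ncoa2 did not overlap between groups, and EpoR-null 2 was the lowest for both.

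Ncoa3, another p160 coactivator, had 82.2, 84.6 and 77.1 CPM in the controls, 59.7 in EpoR-null 1 and 57.5 in EpoR-null 2, also without overlap. Its log2 fold change was -0.47 (SE 0.14; edgeR exact test, FDR = 0.0149). Ncoa1, the remaining p160 coactivator, overlapped between groups and was not called, at -0.16 (edgeR exact test, FDR = 0.860). The retinoid X receptors, the partners of the retinoic acid receptors, were not called: Rxra was at -0.30, Rxrb at 0.11 and Rxrg at 0.98 on the log2 scale (edgeR exact test, FDR = 0.262, 0.772 and 0.231).

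The called cofactors have long transcripts, between 7531 and 9037 bases, and 18.7% of all tested genes of 6000 bases or more were called lower. Relative to the controls, the median of that length class was -0.28 in EpoR-null 1 and -0.59 in EpoR-null 2. With length and GC offsets Nrip1 was called at -1.33 (edgeR likelihood-ratio test, FDR = 0.00169). Ncor1, Ncoa2 and Ncoa3 were then at -0.32, -0.34 and -0.11 and not called (edgeR likelihood-ratio test, FDR = 0.447, 0.241 and 0.997). Without wild type 1, where 0.913% of all genes were called, those 3 were not called either (edgeR exact test, FDR = 0.0742, 0.0622 and 0.364). Ncoa3 also lost its call without wild type 2 (edgeR exact test, FDR = 0.202), without the library labelled heterozygote (edgeR exact test, FDR = 0.134) and without EpoR-null 2 (edgeR exact test, p = 0.00105), and was called in 1 of the 5 fits that left out a sample, that without EpoR-null 1. By the quasi-likelihood test, which called 0% of all genes, none of the 4 was called (edgeR, FDR between 0.0615 and 0.0767). DESeq2, which called 8.09% of all genes, called all 4. With a replicate block, the quasi-likelihood test called 291 of all genes, among them Ncoa2 and Ncor1 but not Nrip1 or Ncoa3.

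**Figure D4:**
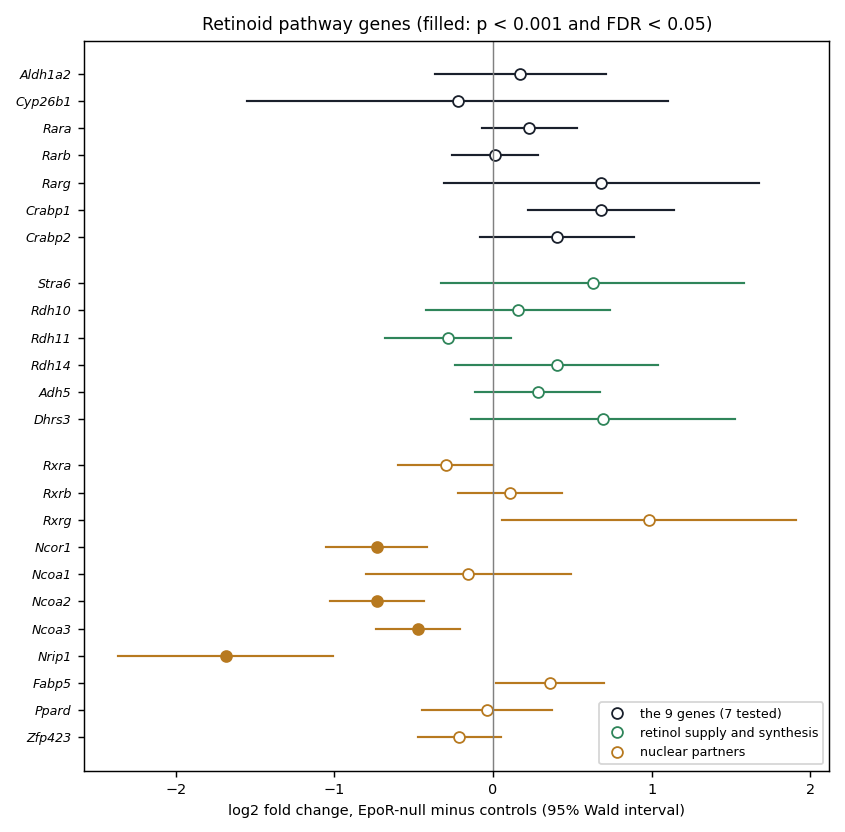
Log2 fold change, EpoR-null minus controls, with 95% Wald intervals (horizontal axis) for the 7 tested genes of the 9, and for other genes of retinol supply and synthesis and of nuclear partners that are reported here (1 gene per row). Filled points passed both thresholds: Ncor1, Ncoa2, Ncoa3 and Nrip1, all below 0.

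Genes that retinoic acid raises in early neural tissue showed no called change between the groups. All 18 of that list were tested; the exact test, the quasi-likelihood test and DESeq2 called 0, and 1 passed an unadjusted p of 0.05 in the exact test. The same tests called 4.77%, 0% and 8.09% of all genes, and 19.8% of all genes passed an unadjusted p of 0.05, so that a count of 0 among 18 is near the background of calls. Their median log2 fold change was 0.12, with a range of -0.35 to 0.70. That 1 gene was Hoxa4, a hindbrain and spinal cord Hox gene, with 20.2, 20.4 and 20.7 CPM in the controls, 42.1 in EpoR-null 1 and 23.7 in EpoR-null 2. Its log2 fold change was 0.68 (SE 0.30; edgeR exact test, FDR = 0.143), and 1.04 without EpoR-null 2, which leaves 1 EpoR-null sample. Hoxa3 was also above all controls in both EpoR-null samples, at 51.1 and 43.2 CPM against 36.6 to 40.3 (edgeR exact test, FDR = 0.346).

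The EpoR-null samples differed from each other here as for Cyp26b1. For 10 of the 18 genes, or 55.6%, they lay on opposite sides of all 3 controls, beside 20.6% of all tested genes. EpoR-null 1 was above in 3 of the 10, Hoxb4, Hoxb5 and Nr2f2, and EpoR-null 2 was above in 7, among them Hoxb1, Cdx1, Pax6 and Olig2.

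Hoxb5, a Hox gene of the posterior hindbrain and spinal cord, is given as an example chosen after its values were seen. It had 25.1, 30.6 and 27.7 CPM in wild type 1, wild type 2 and the library labelled heterozygote, 53.6 in EpoR-null 1 and 19.9 in EpoR-null 2. The EpoR-null samples thus bracketed the controls and differed 2.698-fold. Without EpoR-null 2 the log2 fold change of Hoxb5 was 0.94, resting on EpoR-null 1 alone. Cdx1, a caudal factor also chosen after its values were seen, bracketed them the other way, with 1.82 CPM in EpoR-null 1, 6.66 in EpoR-null 2 and 2.16 to 3.33 CPM in the controls. Summed paraxial mesoderm markers were 125 CPM in EpoR-null 1 and 39.9 in EpoR-null 2, and tail bud markers were 19.8 and 60 CPM, and their part in these differences was not tested.

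Of 6 tail bud genes that retinoic acid holds back, 2 were tested and 0 called by the exact test, the quasi-likelihood test or DESeq2, with 0 at an unadjusted p of 0.05 by the exact test. Of all genes, 4.77%, 0% and 8.09% were called by these tests and 19.8% passed an unadjusted p of 0.05, and 2 genes are too few to set against these shares. T, the mesoderm factor Brachyury, had 6.82 CPM in wild type 1, 10.9 in wild type 2, 0.519 in the library labelled heterozygote, 6.77 in EpoR-null 1 and 17.8 in EpoR-null 2 (log2 fold change 1.02, SE 1.07; edgeR exact test, FDR = 0.635). Without the library labelled heterozygote it was at 0.47 (edgeR exact test, FDR = 0.822), and without EpoR-null 2 at 0.15 (edgeR exact test, FDR = 0.914). Nkx1-2, a marker of the preneural tail bud, had 3.06, 3.48 and 3.63 CPM in the controls, 0.455 in EpoR-null 1 and 6.80 in EpoR-null 2 (edgeR exact test, FDR = 0.964). Without EpoR-null 2 the log2 fold change of Nkx1-2 was -2.89, resting on EpoR-null 1 alone. Nkx1-2 followed the order of Cyp26b1, lowest in EpoR-null 1 and highest in EpoR-null 2, and T was lowest in the library labelled heterozygote.

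**Figure D5:**
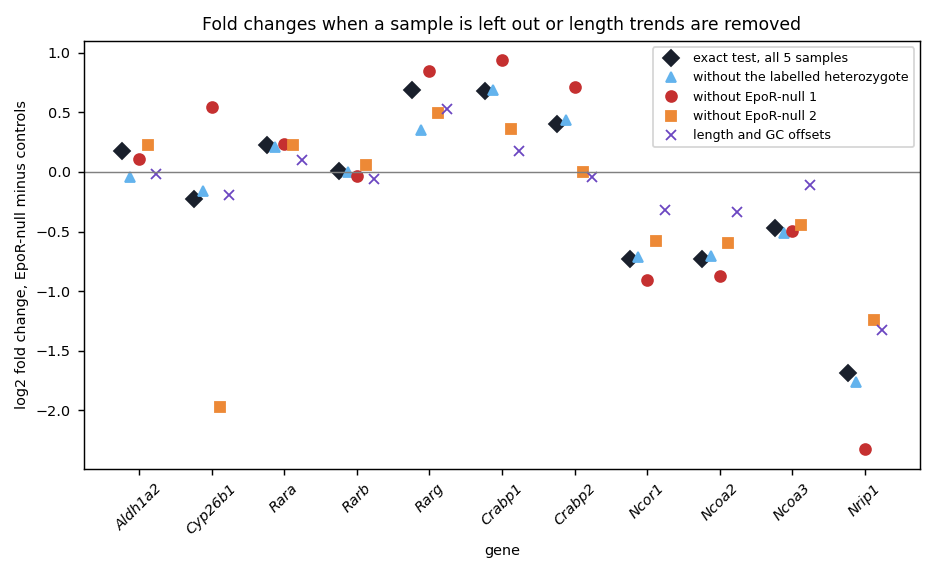
Log2 fold change, EpoR-null minus controls (vertical axis), for 11 genes (horizontal axis) with all 5 samples, without the library labelled heterozygote, without either EpoR-null sample, and with length and GC offsets. Cyp26b1 moves from -1.97 to 0.55 with the EpoR-null sample left out, Rarb stays near 0, and Nrip1 lies between -2.325 and -1.245.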

How the data were processed

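The authors deposited raw read counts per gene for each of 5 mouse neural tube samples. Per the submitters' processing notes, reads were checked with FastQC, trimmed with Trimmomatic 0.32, aligned to mm9 with TopHat2 2.1.0 and counted with HTSeq 0.6.1. The gene annotation and strand setting are not given in the sources used here, and the study's methods name a human build, so the counts were used by gene symbol alone. Reads without molecular identifiers are not independent molecules, so the detection floor covers counting error only. The 5 HTSeq summary lines per file were left out; 8.12 to 11.0% of uniquely aligned reads lay outside genes and 1.85 to 2.31% were ambiguous.

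Counts were fitted across all 12703 genes with over 1 CPM in at least 2 samples in R 4.3.3 with edgeR 4.0.16 (TMM scaling, tagwise dispersion, exact test, Benjamini-Hochberg adjustment over all tested genes). The biological coefficient of variation was 0.232. On simulated counts of the same design with 200 changed genes among 12599, 83.5% were recovered and 24.4% of calls were false. These shares were not broken down by size of fold change, and recovery at the fold changes of the 9 genes was not tested. Intervals are 95% Wald intervals. No pair of samples agreed within sampling noise (lowest chi-square per degree of freedom 11.95). Labels do not say that samples with the same replicate number shared a litter. Lengths (99.0% of tested genes), GC content and positions came from GENCODE M21 on GRCm38.

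Alternatives were edgeR's quasi-likelihood test with and without a replicate block, DESeq2 1.42.0, other scalings, no filter, length and GC offsets, an FDR threshold alone, and each sample left out. All 9 genes, Epor and, per list, the genes past both thresholds or else those with the 2 lowest p-values were named, with exceptions marked. The members and lists were chosen with earlier results of these data known. Bco1 was not found under that symbol. A few genes of these lists are counted but not reported here by name.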

Additional observations from a re-analysis of the deposited data

How the results depend on the processing

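With the replicate block, edgeR's quasi-likelihood test called 291 of all genes, and the correlation of wild type and EpoR-null replicate differences was 0.427 over 12703 genes; this rests on 2 pairs that share only a number. The 606 calls over all genes became 0 by the quasi-likelihood test without the block (3052 at an unadjusted p of 0.05), 1028 by DESeq2, 185 with length and GC offsets, 0 with the block and offsets (1396 at an unadjusted p of 0.05), 928 by FDR alone, and 115 to 2296 when 1 sample was left out, the extremes being without wild type 1 and without EpoR-null 1. The 0 calls among the 9 genes became 1 by FDR alone and stayed 0 in the other runs that kept both EpoR-null samples. The 4 calls in the rest of the pathway became 0 by the quasi-likelihood test (11 at an unadjusted p of 0.05), 1 with offsets, 0 with block and offsets, and 1 to 5 with a sample left out. The 0 calls among responsive genes stayed 0 in every run that kept both EpoR-null samples. With 1 EpoR-null sample left, some of the 9 genes and of the responsive genes were called, but the share called of all genes also rose. Rara, Rarg and Crabp1 kept a positive fold change in every alternative run. The cause of the following turns of sign was not tested. Aldh1a2, at 0.17, was at -0.017 with offsets, -0.021 with block and offsets, and between -0.045 and 0.32 with a sample left out. Cyp26b1, at -0.22, ranged from -1.97 to 0.55. Rarb, at 0.01, was at -0.034 by library size alone, -0.023 without the filter, -0.059 with offsets, -0.064 with block and offsets, and from -0.035 to 0.054 with a sample left out. Crabp2, at 0.40, was at -0.045 with offsets and -0.11 with block and offsets. Nkx1-2, at 0.10, was at -0.83 with the block, -0.0023 by library size alone, -0.0036 with offsets, -0.90 with block and offsets, and from -2.89 to 1.002 with a sample left out. Hoxb5, at 0.40, ranged from -0.49 to 0.94. With 1 EpoR-null sample left, the spread is taken from the controls. Cyp26a1 and Cyp26c1 had few reads, at most 36 and 5 per library, and the part of depth in this was not tested.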
